A study of Mus musculus with 9 samples.

Results

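Transcripts of 10 established markers of kidney tubule injury and repair, Havcr1, Lcn2, Spp1, Clu, Krt8, Krt18, Vim, Vcam1, Cd44 and Sox9, were compared between kidneys of wild-type mice and of mice lacking the clock gene Bmal1. The 10 genes were taken by symbol from 23203 symbols that occurred once in the deposited tables, and 8 of them were abundant enough to be tested. The 4 wild-type libraries and the 5 libraries labelled Bmal1 KO came from whole kidney tissue of C57BL/6 mice. The labels name no treatment and give no injury, age, sex, hour of sampling or deleted part of Bmal1. Nothing in them ties the libraries to separate animals, and the p-values therefore measure spread among libraries, which may be technical. Libraries were made from 500 ng of total RNA with the QuantSeq kit, which reads each transcript close to its 3′ end, about 1 tag apiece, so that levels of different genes can be compared without a length correction.

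Injured tubule cells lose parts of their transport program and express genes that are low in the resting tubule. Some of the products are shed or secreted (KIM-1, the product of Havcr1, neutrophil gelatinase-associated lipocalin from Lcn2, osteopontin from Spp1, clusterin from Clu), some build the cytoskeleton (keratins 8 and 18, vimentin), and some bind matrix or leukocytes (CD44, VCAM1), while the transcription factor SOX9 marks regenerating tubule. Several of these genes are also expressed in healthy kidney or in other cells: osteopontin and clusterin in distal segments, vimentin in endothelium and fibroblasts, lipocalin 2 in neutrophils, and keratins 8 and 18 in collecting duct and urothelium.

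Values are log2(x + 1), where x is the reads of a gene after the authors' adjustment to a common library size, and totals of x ran from 11765219 to 13486444 per library. Genes that define kidney segments were abundant, with lowest values in any library of 13.05 for Umod (thick limb), 12.88 for Lrp2 and 14.58 for Slc34a1 (both proximal tubule) and 10.385 for Aqp2 (collecting duct). Arntl, the symbol of Bmal1, was lower in knockout by -0.84 (SE 0.21, limma adjusted p = 0.0113), but a 3′ tag outside the deleted part would still be read, so this does not check the labels. Wild type 2 held the highest globin share of its group, 1.54% of x, and its highest sum of neutrophil markers, and results that rest on it are given without it. Globin took 0.897% to 3.56% of x in the knockouts. Knockout 4 had the highest globin share and the highest neutrophil marker sum of all libraries. The precursor of ribosomal RNA, Rn45s, took 5.07% to 11.3% of x in wild type and 6.83% to 14.4% in knockout. Symbols with x of at least 10 numbered 13085 to 13245 per wild type and 13317 to 13443 per knockout (exact permutation p = 0.00794, two-sided, unadjusted). The bearing of that difference on the calls was not tested.

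Of the 8 markers tested, 3 rose in knockout (Krt18, Clu and Vim) and 0 fell by limma at an adjusted p under 0.05. At an unadjusted p under 0.05, 4 were higher and 1 was lower, against 1735 higher and 1966 lower of all 13462 genes tested. Among all 13462 genes tested, 6.16% rose and 8.22% fell (829 and 1106 genes); scaled to the library total without Rn45s, 1268 rose and 695 fell. Under each of the 4 other scalings run (that one, quantile, library total and upper quartile), 4 markers rose, the fourth being Spp1. All 5 knockouts lay above all 4 wild types for 3 of the 8 markers (Krt18, Clu and Vim), against 5.85% of tested genes, and below them for 1 (Sox9), against 8.47%. The median difference was 0.46 over the 8 markers and 0.00015 over all tested genes. Members under the filter are given separately, since the 8 that passed are not all of the list.

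**Figure D1:**
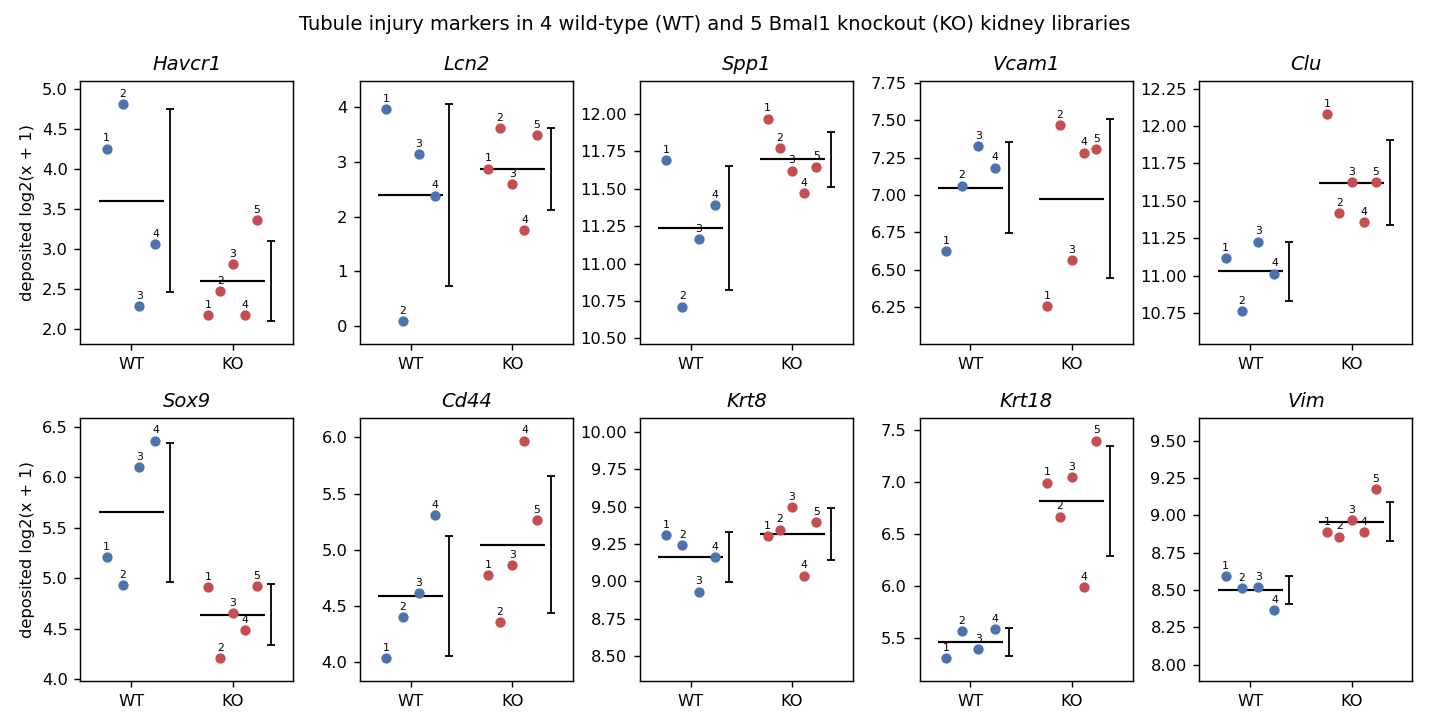
Deposited log2(x + 1) values of the 10 markers in each library, with numbers for the replicate, lines for the group mean and bars for the SD (n = 4 wild type, n = 5 knockout). Axes differ between panels, and the groups do not overlap for Clu, Krt18, Vim and Sox9.

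**Figure D2:**
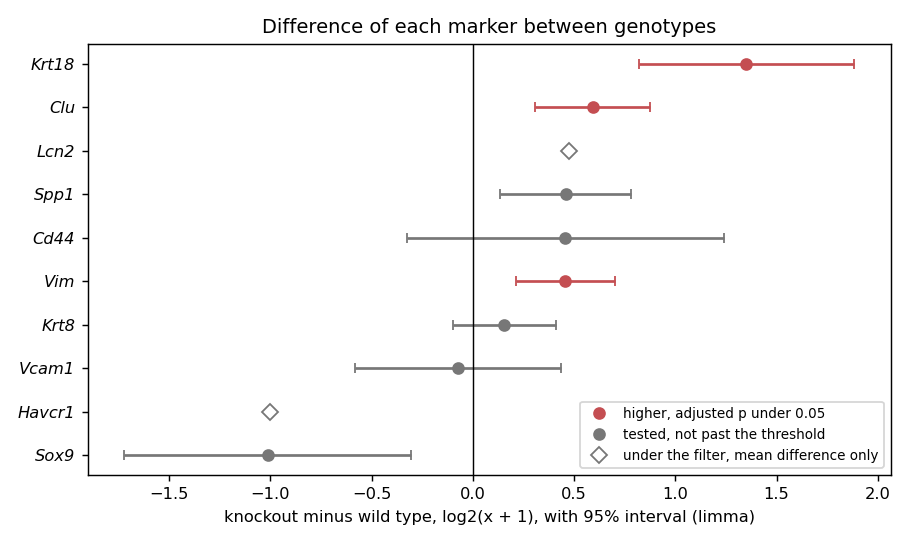
Difference between genotypes for each marker, knockout minus wild type on the log2(x + 1) scale, with 95% intervals from limma for the 8 tested genes and mean differences alone for Havcr1 and Lcn2. Intervals of Krt18, Clu and Vim lie above 0 and passed the adjusted threshold, whereas those of Spp1 and Sox9 exclude 0 and did not.

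The shed and secreted damage markers most used in urine tests were low, with x under 10 in 7 of 9 libraries for Havcr1 and 6 of 9 for Lcn2. Havcr1 (chromosome 11, 46735080 to 46779578, + strand, GRCm38) encodes KIM-1, a receptor with which proximal tubule cells engulf dying neighbours. It stood at 4.25, 4.81, 2.29 and 3.06 in wild types 1 to 4, and at 2.175, 2.47, 2.815, 2.17 and 3.36 in knockouts 1 to 5. The groups overlapped, and the 2 highest values were wild types 2 and 1. Mean x was 14.1 in wild type and 5.38 in knockout, and x reached 10 in 2 wild types and 0 knockouts, so the gene was under the filter and not fitted. The mean difference was -1.004 (exact permutation p = 0.127, two-sided, unadjusted), and -0.60 without wild type 2.

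Lcn2 (chromosome 2, 32384633 to 32388252, - strand) encodes the siderophore-binding lipocalin that distal segments release after damage. Wild types 1 to 4 read 3.965, 0.08, 3.145 and 2.38, against 2.88, 3.62, 2.59, 1.75 and 3.50 for knockouts 1 to 5. Its knockout values all lay between the lowest and the highest wild type. Mean x was 6.69 and 7.07, and only 1 wild type and 2 knockouts reached an x of 10. The mean difference of 0.47 (exact permutation p = 0.643, two-sided, unadjusted) became -0.30 without wild type 2, which had the lowest Lcn2 of all 9 libraries and the highest neutrophil marker sum of the wild types.

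Clusterin and osteopontin made up most of the signal. The 10 markers together took 0.0344% to 0.0531% of x in wild type and 0.0523% to 0.0801% in knockout, and Spp1 and Clu accounted for 73.6% to 85.9% of that sum. Clu (chromosome 14, 65968483 to 65981547, + strand) encodes a secreted chaperone that binds misfolded proteins. The wild types stood at 11.11, 10.76, 11.23 and 11.01, the knockouts at 12.08, 11.42, 11.63, 11.36 and 11.63. The lowest knockout, number 4, stood above the highest wild type, number 3, and knockout 1 was the highest. Clu rose by 0.59 (SE 0.14, 95% interval 0.31 to 0.88, limma adjusted p = 0.00621), a 1.51-fold difference on the log2(x + 1) scale, from 11.03 ± 0.197 (SD, n = 4) to 11.62 ± 0.282 (SD, n = 5). The call was lost when the variance was fitted without the trend on expression level (adjusted p = 0.0522).

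Spp1 (chromosome 5, 104435118 to 104441050, + strand) encodes osteopontin, a phosphoprotein of urine and matrix that binds integrins and CD44. Its wild-type values of 11.69, 10.71, 11.16 and 11.39 overlapped the knockout values of 11.97, 11.77, 11.62, 11.47 and 11.65. Only wild type 1 reached into the knockout range, and wild type 2 was the lowest of all. The difference of 0.46 (SE 0.15, 95% interval 0.13 to 0.78, limma adjusted p = 0.0547) was not called. It passed in 8 of 21 other ways of processing, with adjusted p from 0.00167 to 0.168. Without wild type 2 it was 0.28 (adjusted p = 0.153), and without wild type 1 it was 0.61 (adjusted p = 0.0107). Exons of Spp1 share 309 bases with the unclassified transcript Gm42793 on the same strand, outside the last 500 bases.

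Among the filament genes, Krt18 showed the largest difference of the tested markers, while its partner Krt8 was not called. Keratin 8 and keratin 18 are the type II and type I chains that pair in simple epithelia, and their genes lie 23697 bases apart on chromosome 15: Krt8 at 101996698 to 102004482 on the - strand and Krt18 at 102028180 to 102032027 on the + strand. Their promoter windows (RefSeq, GRCm38.p6, 250 bases before the start site and 50 from it on, 5′ to 3′ on the gene's strand) are printed because the neighbouring partners differed in response. Capitals mark TAGGTCA, the core of the element bound by ROR and REV-ERB clock receptors.
Krt18 promoter (chr15:102027966-102028265, + strand): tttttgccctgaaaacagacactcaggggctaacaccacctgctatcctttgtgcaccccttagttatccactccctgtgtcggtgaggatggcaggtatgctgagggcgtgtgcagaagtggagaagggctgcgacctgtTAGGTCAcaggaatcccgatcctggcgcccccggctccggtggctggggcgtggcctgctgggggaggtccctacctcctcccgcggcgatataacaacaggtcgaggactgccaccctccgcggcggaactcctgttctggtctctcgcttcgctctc
Krt8 promoter (chr15:102004293-102004592, - strand): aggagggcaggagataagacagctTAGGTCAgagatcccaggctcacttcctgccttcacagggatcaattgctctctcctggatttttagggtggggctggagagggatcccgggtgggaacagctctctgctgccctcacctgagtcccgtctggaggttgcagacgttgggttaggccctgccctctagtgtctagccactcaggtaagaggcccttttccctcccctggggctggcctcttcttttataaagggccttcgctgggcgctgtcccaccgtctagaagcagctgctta
The match began at -109 in Krt18 and at -226 in Krt8. TAGGTCA or its reverse complement occurred in 2.61% of 32851 RefSeq promoter windows. Both windows lacked the E-box CACGTG, the site of BMAL1 dimers, which 7.15% of windows held, the variant E-box CACGTT (4.69%), and the D-box TTANNTAA (6.00%). A match describes letters and is not a shown binding site. Other motifs searched on both strands were GGGNNTTCC (NF-kB-like, 5.82% of windows), found in Vim at -223, and TGANTCA (AP-1-like, 7.81%), found in 1 window of Havcr1 at 11; the variant E-box was found in Cd44 at -30. RefSeq windows were matched for 7 of the 10 markers, all but Clu, Sox9 and Vcam1, and none of them held CACGTG or TTANNTAA.

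Krt18 read 5.31, 5.57, 5.40 and 5.59 in the wild types, against 6.99, 6.665, 7.04, 5.99 and 7.395 in the knockouts. All knockouts lay above all wild types, with knockout 4 closest to them and knockout 5 farthest. Krt18 rose by 1.35 (SE 0.25, 95% interval 0.82 to 1.88, limma adjusted p = 0.00132), 2.55-fold on the log2(x + 1) scale, from a mean x of 43.3 to 117. It was called in 21 of 21 other ways of processing, with differences of 1.21 to 1.59.

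Krt8 read 9.31, 9.24, 8.93 and 9.16 in the wild types, against 9.30, 9.35, 9.50, 9.04 and 9.40 in the knockouts, and the groups overlapped. The difference of 0.15 (95% interval -0.10 to 0.41, limma adjusted p = 0.449) was not called. The annotation holds 1 pseudogene named after Krt8, and how the authors assigned reads shared with it is not given in the sources used here.

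Within a library, Krt8 exceeded Krt18 by 4.00, 3.68, 3.535 and 3.575 among the wild types, and by 2.31, 2.68, 2.46, 3.05 and 2.00 among the knockouts. Every knockout gap was smaller than every wild-type gap. As ratios of x, Krt8 was 11.8 to 16.4 times Krt18 in wild type and 4.03 to 8.39 times in knockout. The mean gap went from 3.70 ± 0.212 (SD, n = 4) to 2.50 ± 0.393 (SD, n = 5), a difference of -1.20 (exact permutation p = 0.0159, two-sided, with 0.00794 the smallest the 126 splits allow). Because Krt18 is called and Krt8 is not, this test of the gap, and not the 2 separate calls, bears on whether the partners moved unequally.

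**Figure D3:**
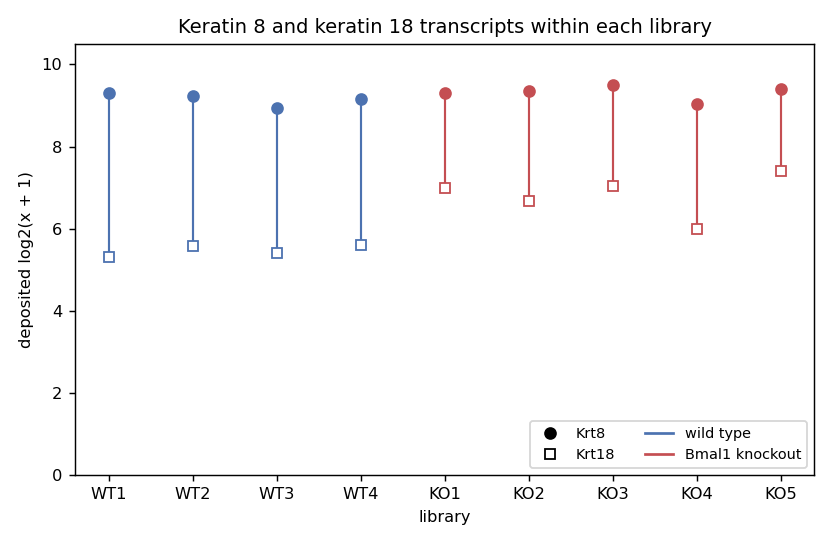
Krt8 (filled circles) and Krt18 (open squares) in each library, deposited log2(x + 1), joined by a line whose length is the gap between the partners. The gap is 3.535 to 4.00 in the wild types and 2.00 to 3.05 in the knockouts; Krt18 is higher in every knockout than in every wild type.

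Vim (chromosome 2, 13573927 to 13582826, + strand) encodes vimentin, the filament of mesenchymal cells that injured tubule cells also make. It read 8.59, 8.51, 8.52 and 8.37 in the wild types, against 8.885, 8.86, 8.97, 8.89 and 9.18 in the knockouts. The groups were tight and did not overlap, and knockout 5 was again the highest. Vim rose by 0.46 (SE 0.12, 95% interval 0.21 to 0.70, limma adjusted p = 0.0122), 1.37-fold, and was called in 21 of 21 other ways of processing.

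Of 14 tested partners of these filaments (other keratins, desmin, nestin, lamins and desmosomal linkers), 1 rose and 0 fell by limma. The median was 0.16. At an unadjusted p under 0.05, 3 were higher and 0 lower. The share that rose was 7.14%, near the 6.16% of all tested genes. The one that rose was Krt7, a type II keratin of ducts and urothelium, by 0.80 (SE 0.13, adjusted p = 0.000282). Krt19 (1.05, adjusted p = 0.0639) and Ppl, the periplakin gene (1.12, adjusted p = 0.0506), chosen after their values were seen, were not called.

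The adhesion genes Vcam1 and Cd44 showed no called difference. Vcam1 (chromosome 3, 116109949 to 116129688, - strand) encodes the ligand of integrin α4β1 that injured tubule cells and activated endothelium display. Its level was 6.62, 7.06, 7.33 and 7.18 in the wild types, against 6.26, 7.47, 6.56, 7.28 and 7.305 in the knockouts. Knockouts 1 and 3 were the lowest and knockout 2 the highest of the 9, so the groups overlapped. The difference was -0.07 (95% interval -0.58 to 0.43, limma adjusted p = 0.882), and its sign changed in 4 of 21 other ways of processing. Exons of Vcam1 share 61 bases, and those of Krt8 101 bases, with a noncoding transcript on the opposite strand, outside the last 500 bases.

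Cd44 (chromosome 2, 102811141 to 102901665, - strand) encodes the hyaluronan receptor of regenerating tubule and leukocytes. The wild types stood at 4.03, 4.40, 4.61 and 5.31, the knockouts at 4.78, 4.35, 4.865, 5.97 and 5.26. Knockout 4 was the highest, and 4 knockouts lay within the wild-type range. The difference of 0.46 (95% interval -0.33 to 1.24, limma adjusted p = 0.469) was not called. Without wild type 2 and knockout 4 it was 0.16 (adjusted p = 0.831).

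Among 13 tested ligands and receptors of the markers (integrin chains, lipoprotein receptors, hyaluronan enzymes), 1 rose and 0 fell by limma. The median was -0.06. At an unadjusted p under 0.05, 1 was higher and 2 lower. The share that rose was 7.69%, near the 6.16% of all tested genes. The gene called was Itga4, the α4 chain of the VCAM1 receptor, which rose by 1.16 (SE 0.32, adjusted p = 0.0216). Exons of Itga4 overlap those of Cerkl, so its reads cannot be told from that gene's where strand handling is not given.

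Of 24 tested genes of the NF-kB and STAT3 pathways, which act on Vcam1 and Lcn2, 2 rose and 1 fell, with a median of 0.06. These shares, 8.33% and 4.17%, stood near the 6.16% and 8.22% of all tested genes. Nfkbia, the NF-kB inhibitor, rose by 0.87 (SE 0.16, adjusted p = 0.00130) and Il6ra, the interleukin 6 receptor, by 1.44 (SE 0.33, adjusted p = 0.00571), whereas Chuk, the kinase IKKα, fell by 0.52 (SE 0.11, adjusted p = 0.00465). Icam1, an adhesion gene of the same pathway that was chosen after its value was seen, differed by 0.05 (adjusted p = 0.891).

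Sox9 (chromosome 11, 112782224 to 112787760, + strand) encodes the transcription factor of regenerating tubule. The wild types stood at 5.21, 4.93, 6.10 and 6.36, the knockouts at 4.91, 4.21, 4.65, 4.485 and 4.92. All knockouts lay below all wild types, but only by the step from 4.924 in knockout 5 to 4.932 in wild type 2. Sox9 differed by -1.01 (SE 0.34, 95% interval -1.72 to -0.31), with mean x of 53.6 and 24.3, and limma adjusted p was 0.0513, so it was not called. It passed in 4 of 20 other ways of processing, among them without wild type 2 (-1.25, adjusted p = 0.0153). With the Rn45s share as a covariate it was -0.77 (adjusted p = 0.243), the smallest difference and largest adjusted p of those 20.

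Of 17 tested genes of nephron progenitors or regenerating tubule, 5 rose and 1 fell, with a median of 0.34. These shares were 29.4% and 5.88%, beside 6.16% and 8.22% of all tested genes. Ncam1, an adhesion molecule of the fetal nephron, rose by 1.16 (SE 0.15, adjusted p = 4.43e-05) and Hes1, a Notch target, by 0.68 (SE 0.16, adjusted p = 0.00820). The others that rose were Prom1, Jag1 and Sox4, named because the count is small.

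Ordered by mean level, the markers ran Spp1, Clu, Krt8, Vim, Vcam1, Sox9, Krt18, Cd44, Havcr1 and Lcn2 in wild type. Library ranges overlapped between Spp1 and Clu, between Sox9 and Krt18, between Cd44 and Havcr1 and between Havcr1 and Lcn2. In knockout the order was the same down to Vcam1 and then ran Krt18, Cd44, Sox9, Lcn2 and Havcr1. There, neighbours overlapped for Spp1 and Clu, Krt8 and Vim, Vcam1 and Krt18, Cd44 and Sox9, and Lcn2 and Havcr1. Mean Krt18 moved from percentile 19.4 of the tested genes to 34.1, and mean Sox9 from 21.1 to 10.6.

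Of 28 tested other injury and repair genes, 11 rose and 4 fell, with a median of 0.47. These shares were 39.3% and 14.3%, beside 6.16% and 8.22% of all tested genes. Krt7 is also in the list of filament partners, so its call is counted in both lists. Cdkn1a, the cell-cycle inhibitor p21, rose by 2.38 (SE 0.14, limma adjusted p = 2.26e-09) and Fgb, the fibrinogen β chain that injured tubule also makes, rose by 2.14 (SE 0.18, adjusted p = 1.99e-07). Il34, a ligand of the macrophage receptor CSF1R, fell by 2.72 (SE 0.18, adjusted p = 8.12e-09). Ccnd1, Hmox1 and Plin2, which were chosen after their values were seen, were the others that fell. Noncoding or unclassified transcripts overlap exons of Cdkn1a, Il34, Krt7, Ncam1, Il6ra, Pdgfra, Prom1, Sox4, Icam1 and Umod, and those of Ccnd1 and Slc34a1 overlap another protein-coding gene. Of 16 tested proliferation genes, 0 rose and 1 fell by limma (unadjusted, 0 and 1). The share that fell was 6.25%, beside 8.22% of all tested genes. The gene called was Mcm6, a subunit of the replicative helicase, which fell by 0.78 (SE 0.18, adjusted p = 0.00566).

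**Figure D4:**
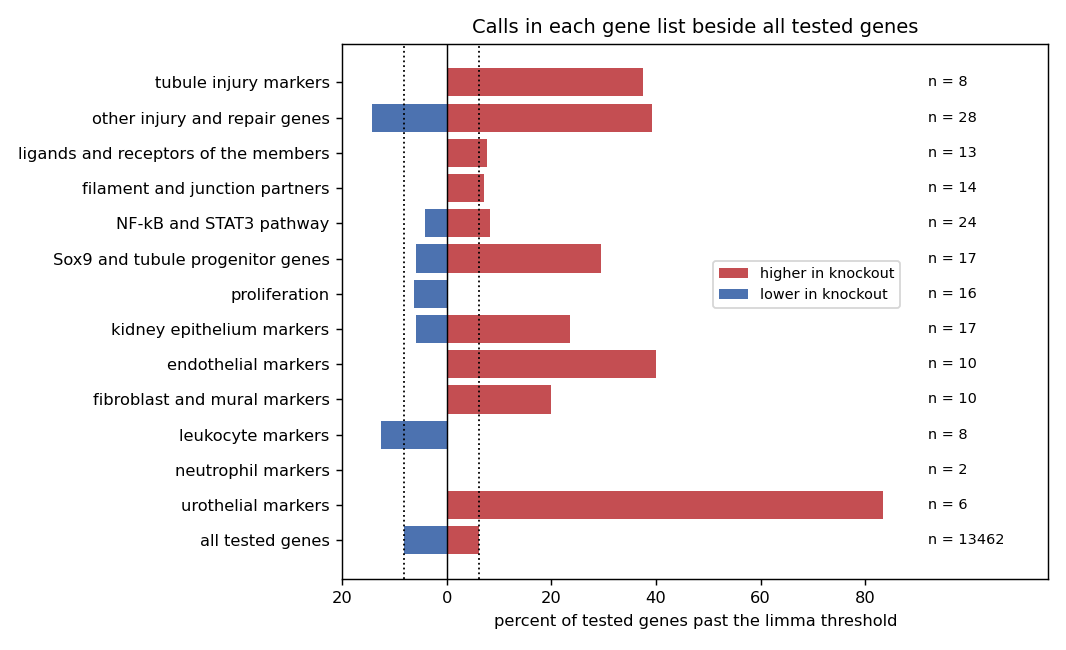
Percent of tested genes in each list that were higher (right) or lower (left) in knockout by limma, with the number tested beside each bar and dotted lines at the 6.16% and 8.22% of all tested genes. The 8 tested injury markers have calls on the right only, the 28 other injury and repair genes on both sides.

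Markers of other cells that express the same genes moved with some of these results. In bulk tissue, a change in the number of cells of a type and a change in RNA per cell cannot be told apart. Of 6 tested urothelial markers, whose cells also express Krt8, Krt18 and Clu, 5 rose and 0 fell by limma (unadjusted, 6 and 0), with a median of 2.04: Krt15 by 3.22 (SE 0.54), Psca by 2.74 (SE 0.53), Upk1a by 2.06 (SE 0.34), and Upk3a and Upk1b, named because the count is small. Their summed x was 53.8, 173, 71.2 and 57.2 in the wild types, against 270.2, 351, 371, 286 and 959.7 in the knockouts. Krt18 and Vim were also highest in knockout 5, while Clu was highest in knockout 1, whose sum was the lowest of the knockouts. Clu was lowest in wild type 2, whose sum was the highest of the wild types. None of the 8 urothelial genes was at 0 in every library, and Krt5 lay between 0 and 3.46. Krt15 did not reach an x of 10 in any wild type (log2 value at most 3.25), and Upk1b did so only in wild type 2. Upk1a (3.261) and Upk3a (3.428) did not reach an x of 10 in wild type 1, nor did Upk2 in wild types 1 and 3 (3.236 and 2.548). Of the tested urothelial genes, only Psca reached it in every wild type. All the rest passed the filter only with the knockouts, where they are high. The count of 5, a share of 83.3% beside 6.16% of all tested genes, and the median are therefore partly set by the filter. The part of the urothelial markers in the Krt18 and Clu results was not tested.

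Of 10 endothelial markers, whose cells also express Vim and Vcam1, 4 rose and 0 fell by limma (unadjusted, 4 and 0), including Plvap by 1.03 (SE 0.16), Pecam1 by 0.83 (SE 0.15) and Tie1 by 0.62 (SE 0.17). Their summed x was 4063 to 5636 in wild type and 5091 to 8980.2 in knockout. The share of endothelial markers that rose was 40%, beside 6.16% of all tested genes. Of 10 fibroblast and mural markers, 2 rose and 0 fell (unadjusted, 7 and 0): Dcn by 0.66 (SE 0.14) and Pdgfra by 0.84 (SE 0.21), with sums of 3530.1 to 3880.0 in wild type and 4144 to 6688 in knockout. The share of fibroblast and mural markers that rose was 20%. Unadjusted, 1735 of all 13462 tested genes were higher. None of these 20 endothelial, fibroblast and mural genes was at 0 in every library, and their part in the Vim result was not tested.

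Of 8 tested leukocyte markers, whose cells also express Cd44, Vim and Spp1, 0 rose and 1 fell by limma (unadjusted, 1 and 1). The share that fell was 12.5%, beside 8.22% of all tested genes. The gene called was Csf1r, which fell by 0.48 (SE 0.11), and exons of it overlap Hmgxb3. Leukocyte sums were 1384 to 1744 in wild type and 1223 to 1548 in knockout. Neutrophil markers, whose cells also express Lcn2, had 2 tested genes of 7 and 0 calls by limma (unadjusted, 0). Their sums were 72.9, 395, 43.9 and 52.7 in wild types 1 to 4, against 157, 285, 217, 556 and 78.1 in knockouts 1 to 5. The groups overlapped through wild type 2 alone. Without it all 5 knockouts lay above the other wild types, knockout 5 (78.1) only just above wild type 1 (72.9). Knockout 4 (556), the highest of all, was kept. Ngp and Camp were at 0 in all 9 libraries. Retnlg, under the filter and chosen after its values were seen, lay at 0 to 2.41 in wild type and at 2.54 to 5.68 in knockout, without overlap. The part of neutrophils in the Lcn2 values was not tested.

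**Figure D5:**
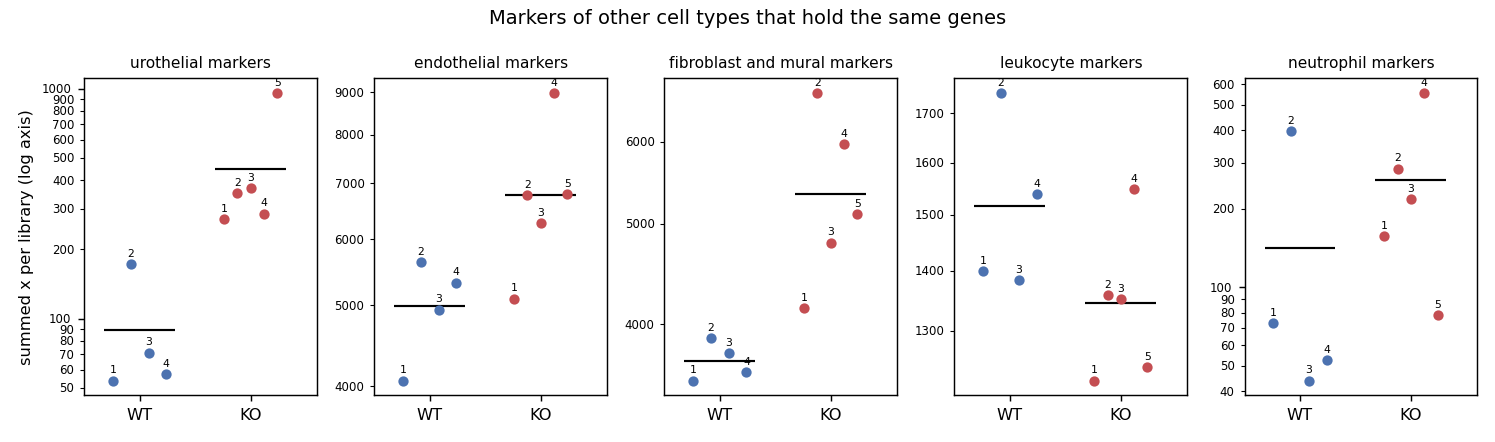
Summed x of the markers of 5 other cell types in each library, on log axes that differ between panels, with numbers for the replicate and lines for the arithmetic mean. Urothelial and fibroblast sums are higher in all 5 knockouts than in all 4 wild types, while leukocyte sums overlap and neutrophil sums overlap through wild type 2 alone.

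Of 17 kidney epithelium markers, 4 rose and 1 fell by limma, with a median of 0.08. These shares were 23.5% and 5.88%, beside 6.16% and 8.22% of all tested genes. At an unadjusted p under 0.05, 5 were higher and 6 lower, against 1735 and 1966 of all 13462 genes tested. The 5 lower ones that were not called, named because the count is small, were Lrp2 (-0.62), Umod (-0.47), Cubn (-0.39), Miox (-0.34) and Slc34a1 (-0.28), with limma adjusted p from 0.0632 to 0.174 and all 5 knockouts below the wild-type mean for each. Of other proximal tubule markers, chosen after their values were seen, Slc5a2 (0.08), Slc5a12 (0.04) and Aqp1 (0.17) were not lower. The same held for Slc12a1 of the thick limb (0.33), and none of these was called (limma adjusted p from 0.369 to 0.887). Slc22a6, the organic anion transporter of proximal tubule, fell by 1.21 (SE 0.12, adjusted p = 1.37e-06), and Calb1, of the distal tubule, rose by 0.58 (SE 0.15), with Atp6v1g3, of intercalated cells, rising by 0.45 (SE 0.12). The others that rose, named because the count is small, were Aqp2 of the collecting duct (0.66, SE 0.21) and Slc12a3 of the distal tubule (0.52, SE 0.16). Distal segments also express Spp1 and Clu, and collecting duct Krt8 and Krt18. The part of these segments in the results for those markers was not tested.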

How the data were processed

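Kidney RNA was extracted with Trizol and sequenced as QuantSeq 3′ libraries, per the labels' protocols. Bowtie2, bedtools and mm10 are named in the submitters' processing notes; for the normalization tool, annotation, strand setting and versions, nothing is given in the sources used here. The deposited log2 values, 1 table per library, are log2(x + 1) of reads the authors adjusted to a common size, read from the values; raw depth is unknown. Symbols listed more than once (79 entries) were left out. Genes with x of at least 10 in at least 4 libraries were fitted with limma 3.58.1 (R 4.3.3), with an intensity trend, genotype as the single term, two-sided, Benjamini-Hochberg over 13462 genes, threshold 0.05. Single values used exact permutation over 126 splits. The fit was tested on simulated data. All 10 markers are named, and of each other list at most the 3 called genes with the smallest adjusted p; others are marked, and some genes that this rule names are not reported here. Alternatives were other filters, pseudocounts, scalings, covariates, blocks and left-out libraries. Positions come from GENCODE M21 (GRCm38). The markers and lists were chosen with earlier results of these data known.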

Additional observations from a re-analysis of the deposited data

Results flagged for a closer look

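Of 52 groups of library values screened, 4 held a library far from the others of its group, and chance alone gives about 1 in 20 groups. Wild type 2 had a globin share of 1.54% of x, a neutrophil marker sum of 395 and a urothelial marker sum of 173, each well above the other wild types. Knockout 5 had a urothelial marker sum of 959.7, well above the other knockouts. None of the 10 injury markers had such a library by the same criterion.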

How the results depend on the processing

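Krt18 and Vim were called higher in all 21 alternatives run for them and Clu in 20. The number of markers called higher ran from 2 to 4, and the number called lower was 1 with log2(x + 5), with quantile normalization and without wild type 2 and knockout 4 together, each time Sox9, and 0 to 1 when single libraries were left out. The gap between Krt8 and Krt18 differed by -1.34 to -1.07 over 11 alternatives (exact permutation p from 0.0159 to 0.0286). Over all genes, 1268 rose and 695 fell after scaling to the total without Rn45s, which moved the median of all genes to 0.105, against 829 and 1106; with the Rn45s share as a covariate 549 rose and 674 fell, and without the intensity trend 734 fell; the cause was not tested. The share of higher calls thus depends on the scaling.

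Correlations of deviations between libraries with the same replicate number in the title were 0.15, 0.00082, -0.0071 and 0.041. By the number in the description they were 0.15, 0.089, -0.055 and -6.2e-05. Differently numbered libraries were not compared, so these values cannot decide whether the numbers pair the libraries. With the title number as a replicate block, knockout 5 alone in its block, Krt18 differed by 1.21 (limma adjusted p = 0.00934). Vim differed by 0.40 (adjusted p = 0.0439) and Spp1 by 0.47 (adjusted p = 0.0432), and 744 genes rose and 992 fell. A block by the number in the description, added after seeing the data, left Clu at 0.64 and Sox9 at -0.91 (adjusted p = 0.120). A minimum x of 50 dropped Sox9 and Cd44, which have no value there. Raw depth is unknown, so no counting error could be given for Havcr1 and Lcn2, which are low.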
